A study of Mus musculus with 7 samples.

Results

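Virtual memory (VM) CD8+ T cells of neonatal mice were compared with those of adult mice by small RNA sequencing of their microRNAs (miRNAs). The comparison used every library that the titles place in these groups, 2 of neonatal VM and 2 of adult VM cells, out of 7 libraries in the series. The other 3 libraries, 2 of adult and 1 of neonatal true naive (TN) cells, entered for the shared estimate of spread and for the comparison of the age change between subsets. All cells came from the spleen of gBT-I mice, neonatal or adult, whose T cells carry a transgenic receptor specific for a herpes simplex virus peptide. VM cells were sorted as CD44hi CD122hi and TN cells as CD44lo CD122lo, after enrichment with beads against CD8α, at over 95% purity. No treatment is given for any group, and no age in days. A single transgenic receptor limits these mice as a model, because it replaces the varied receptors of normal T cells.

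VM cells carry surface markers of memory although they have met no foreign antigen, and respond fast to cytokines. They are common in early life, when many CD8+ T cells come from fetal precursors, and they remain a part of the adult naive repertoire. A miRNA is a short RNA, released as a 5p or a 3p arm from a hairpin precursor, that represses messenger RNAs matching its seed, the bases at positions 2 to 8. Members of a family share a seed and so a large part of their possible targets. Let-7 miRNAs are known to rise as lymphocytes pass from fetal to adult programs, since LIN28 blocks their maturation early in life.

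The deposited totals were 2714219 and 3278451 counts in adult VM replicates 1 and 2, and 1577031 and 3006539 in neonatal VM replicates 1 and 2. Levels are given as CPM, counts scaled to a fixed library size after TMM scaling, which sets a common centre for the libraries. Whether replicates are separate animals is not in the labels, so the spread that p-values rest on is that of the libraries at hand and may be technical only. In sorted pools, fewer cells with a miRNA and less of it per cell cannot be told apart. Across the 288 miRNAs tested (miRNAs are no independent replicates), the Pearson correlation of log2 CPM was 0.992 between the neonatal and 0.981 between the adult VM replicates. It ranged from 0.907 to 0.926 between an adult and a neonatal library. Adult VM replicate 2 stood apart at some miRNAs, as described with the values it touches. The lymphocyte miRNAs miR-150-5p and miR-142a-5p were among the most abundant in all 4 libraries, and the liver marker miR-122-5p was at 0 in all 4. CD8, CD44 and CD122, on which the cells were sorted, are proteins and are not measured here.

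The mature sequences below are those of miRNAs that carry the age difference or show where seed partners parted, grouped by seed, with the seed in capitals. They are from RefSeq (GRCm38.p6), in which 223 of the 288 tested names matched. The first set was higher in neonatal VM cells. It opens with miR-31-5p and miR-298-5p, each with a seed of its own here, and goes on with the families of miR-130, miR-148 and miR-181.
miR-31-5p: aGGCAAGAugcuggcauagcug
miR-298-5p: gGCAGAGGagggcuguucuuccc
miR-130b-3p: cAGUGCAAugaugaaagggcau
miR-301a-3p: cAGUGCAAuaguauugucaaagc
miR-148a-3p: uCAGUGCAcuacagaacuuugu
miR-148b-3p: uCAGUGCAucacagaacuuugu
miR-181a-5p: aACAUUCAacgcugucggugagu
miR-181b-5p: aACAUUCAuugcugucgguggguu
miR-181d-5p: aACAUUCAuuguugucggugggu

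The second set was lower in neonatal VM cells. The members of the let-7 family, and those of the miR-29 family, share their seed and differ by few bases after it.
let-7a-5p: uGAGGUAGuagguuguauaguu
let-7b-5p: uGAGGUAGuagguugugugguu
let-7c-5p: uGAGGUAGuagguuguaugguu
miR-29a-3p: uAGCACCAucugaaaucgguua
miR-29b-3p: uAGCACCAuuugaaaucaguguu
miR-29c-3p: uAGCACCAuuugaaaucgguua
miR-101a-3p: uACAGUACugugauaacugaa
miR-139-5p: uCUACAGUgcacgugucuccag
miR-30a-5p: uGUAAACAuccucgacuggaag

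The third set holds members of the 4 seed groups in which members were called in opposite directions.
miR-363-3p: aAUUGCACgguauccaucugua
miR-92a-3p: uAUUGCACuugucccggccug
miR-92b-3p: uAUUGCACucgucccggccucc
miR-25-3p: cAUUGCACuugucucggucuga
miR-322-5p: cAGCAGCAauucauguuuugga
miR-195a-5p: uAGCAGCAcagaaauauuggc
miR-146a-5p: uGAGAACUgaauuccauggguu
miR-146b-5p: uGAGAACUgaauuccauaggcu
miR-221-3p: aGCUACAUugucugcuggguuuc
miR-222-3p: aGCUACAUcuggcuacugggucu

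The comparison asked which miRNAs differ between neonatal and adult VM cells. Of the 288 tested, 155 were called (53.8%; 170 had an unadjusted p of at most 0.05, 59.0%), 66 higher (22.9%) and 89 lower (30.9%) in neonatal cells, by edgeR's quasi-likelihood test at a Benjamini-Hochberg adjusted p of at most 0.05. Scaled by library totals alone, 117 were higher and 49 lower, a shift of 0.51 (log2) in the median over everything tested, so small changes are read relative to the centre TMM sets. The neonatal and adult libraries did not overlap at 225 miRNAs (78.1%), and at all 155 that were called. Among the called miRNAs, 51 rose and 69 fell by over 2-fold, and 28 rose and 17 fell by over 4-fold. The median log2 fold change was 1.77 for those that rose, -1.57 for those that fell and -0.08 over all tested. The 10 CPM needed for testing was taken on library totals, before TMM scaling. On the scale of the levels given here, that cut lay lower in neonatal than in adult VM libraries. Some tested miRNAs reached it at a single age. In neonatal libraries only, 25 did, of which 20 were called higher. In adult libraries only, 12 did, of which 9 were called lower. MiR-210-3p, miR-31-5p and miR-126a-3p are among those that did in neonatal libraries only. The smallest called change was 0.45 on the log2 scale. Over the 4 VM libraries, principal component 1 of the log2 CPM values, which separated the ages, took 85.8% of the variance and component 2 took 10.5%.

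**Figure D1:**
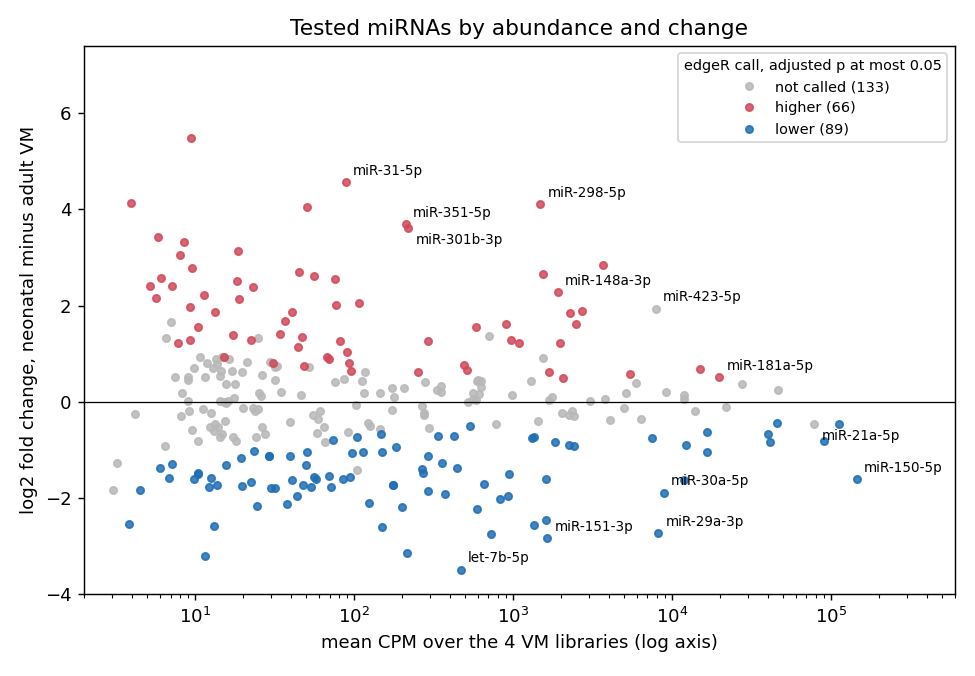
Log2 fold change of neonatal against adult VM cells for the 288 tested miRNAs (vertical axis) by their mean CPM over the 4 VM libraries (horizontal log axis). Points are coloured by the edgeR call at an adjusted p of at most 0.05, and show 66 higher, 89 lower and 133 not called, with called changes at low and high abundance alike.

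The 15 largest increases, taken from called miRNAs that averaged 50 CPM or more over the 4 libraries, ran from 3.07-fold to 23.9-fold. MiR-31-5p, a target of T cell receptor signalling, stood at 7.65 and 6.57 CPM in adult VM replicates 1 and 2 and at 154 and 186 CPM in neonatal VM replicates 1 and 2. Both neonatal libraries were far above both adult ones, and the gap within each age was small. The increase was 23.9-fold (log2 fold change 4.58 with an SE of 0.30, adjusted p = 3.34e-07 in edgeR). But miR-31-5p reached the 10 CPM needed for testing in neonatal libraries only, so its direction was largely set by that choice. Its hairpin Mir31, at chr4:88910557-88910662 on the minus strand (GRCm38), overlaps an exon of AL805899.1, a lincRNA.

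The miR-322 to miR-450 cluster on the X chromosome, whose miRNAs are known for expression in embryonic and progenitor cells, had 5 of its 11 listed members tested. All 5 were called higher, beside 22.9% of all tested miRNAs. But miR-450a-5p and miR-450b-5p reached the 10 CPM needed for testing in neonatal libraries only, so their direction was largely set by that choice. MiR-351-5p stood at 33.0 and 28.0 CPM in adult and 372 and 414 CPM in neonatal VM libraries, with no overlap (log2 fold change 3.69 with an SE of 0.23, adjusted p = 3.34e-07 in edgeR). MiR-322-5p, the mouse relative of human miR-424, stood at 20.5 and 23.9 CPM in adult and 136 and 124 CPM in neonatal libraries (log2 fold change 2.55 with an SE of 0.27, adjusted p = 1.01e-05 in edgeR). Both neonatal libraries again lay above both adult ones. The other arm, miR-322-3p (log2 fold change 2.23), miR-450a-5p (2.41) and miR-450b-5p (2.58) rose from a few CPM, at 5.23 CPM or less in the adult VM libraries. The 6 members not tested, miR-503-5p, miR-503-3p, miR-351-3p, miR-542-3p, miR-542-5p and miR-450b-3p, were at 0 to 4.96 CPM in every VM library. Mir322 lies at chrX:53054255-53054349 on the minus strand, in no gene of that strand.

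MiR-301a-3p, miR-301b-3p and miR-130b-3p, which share the seed AGUGCAA or belong to its family, were all higher in neonatal VM cells. The share called higher over all tested miRNAs was 22.9%. MiR-301b-3p stood at 29.8 and 36.0 CPM in adult and 389 and 423 CPM in neonatal libraries (log2 fold change 3.62 with an SE of 0.25, adjusted p = 3.34e-07 in edgeR). MiR-301a-3p stood at 291 and 547 CPM in adult and 2482 and 2837 CPM in neonatal libraries (log2 fold change 2.67 with an SE of 0.29, adjusted p = 4.55e-05 in edgeR). The adult replicates of miR-301a-3p were further apart than the neonatal ones, and still far below them. MiR-130b-3p stood at 1500 and 949 CPM against 3820 and 3653 CPM (log2 fold change 1.61 with an SE of 0.23, adjusted p = 9.94e-05 in edgeR). Its other arm, miR-130b-5p, stood at 434 and 448 CPM against 1472 and 1236 CPM (log2 fold change 1.62), nearly the same change. The fourth member, miR-130a-3p, was not called (23.3 and 5.19 CPM against 32.1 and 37.9, log2 fold change 1.32, edgeR adjusted p = 0.258, and 2.74 with a call without adult VM replicate 1). Mir301 lies in an intron of Ska2 (chr11:87113004-87113089, plus strand) and Mir130b in an intron of 2610318N02Rik (chr16:17124061-17124142, minus strand).

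MiR-148a-3p and its seed partner miR-148b-3p both rose, beside 22.9% of all tested miRNAs. MiR-148a-3p, which is known from repeatedly activated lymphocytes, stood at 570 and 727 CPM in adult and 3230 and 3112 CPM in neonatal libraries (log2 fold change 2.29 with an SE of 0.20, adjusted p = 2.95e-06 in edgeR). MiR-148b-3p stood at 1126 and 1238 CPM against 2825 and 2704 CPM (log2 fold change 1.23). Groups did not overlap for either, and the third family member, miR-152-3p, was at 0 to 1.04 CPM and not tested. Mir148a lies at chr6:51269812-51269910 on the minus strand, in no gene of that strand.

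All 4 members of the miR-181 family, which tunes the sensitivity of the T cell receptor in thymocytes, were higher in neonatal VM cells. Their median log2 fold change was 0.96, against -0.08 over all tested miRNAs, of which 22.9% were called higher. MiR-181d-5p moved most, from 857 and 1128 CPM in adult to 3598 and 3564 CPM in neonatal libraries (log2 fold change 1.85 with an SE of 0.20, adjusted p = 1.44e-05 in edgeR). MiR-181b-5p stood at 675 and 633 CPM against 1703 and 1349 CPM (log2 fold change 1.22), and miR-181c-5p at 10256 and 12649 CPM against 17569 and 19442 CPM (log2 fold change 0.69). The most abundant member, miR-181a-5p, stood at 16418 and 16420 CPM against 25886 and 20771 CPM (log2 fold change 0.51 with an SE of 0.19, adjusted p = 0.044 in edgeR). Its neonatal replicates were further apart than its adult ones, and it lost its call without neonatal VM replicate 1 or 2 (adjusted p = 0.332 and 0.0682 in edgeR), as did miR-181c-5p without neonatal VM replicate 2 (0.106). The passenger arm of Mir181a-2, miR-181a-2-3p, rose from 30.6 and 30.1 CPM to 132 and 113 CPM (log2 fold change 2.01). Mir181d lies in an intron of Nanos3 (chr8:84178716-84178787, minus strand).

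MiR-298-5p, miR-744-5p, miR-877-5p and miR-296-3p were the 4 of the 15 largest increases at which the adult replicates differed by over 2-fold, with replicate 2 the lower in each. MiR-298-5p stood at 224 and 101 CPM in adult and 2749 and 2845 CPM in neonatal libraries (log2 fold change 4.11 with an SE of 0.38, adjusted p = 5.67e-05 in edgeR), and at 3.70 on the log2 scale without adult VM replicate 2. MiR-877-5p stood at 8.86 and 2.77 CPM against 104 and 86.7 CPM (log2 fold change 4.06 with an SE of 0.45, adjusted p = 2.43e-05 in edgeR), and at 3.47 without that replicate. MiR-296-3p stood at 24.2 and 7.61 CPM against 95.9 and 97.2 CPM (log2 fold change 2.62 with an SE of 0.45, adjusted p = 0.000979 in edgeR), and at 2.05 without it. All 3 stayed called with the replicate left out, and their neonatal libraries lay above both adult ones. MiR-744-5p stood at 1375 and 438 CPM against 6718 and 6244 CPM (log2 fold change 2.84 with an SE of 0.59, adjusted p = 0.0134 in edgeR), and at 2.29 without adult VM replicate 2. Among the 15 largest increases, only miR-744-5p lost its call in any alternative run. That was so without neonatal VM replicate 1 or 2, without a filter and under another filter.

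Mir296 and Mir298 lie together in the imprinted Gnas region of chromosome 2 (174267047 to 174267585, minus strand). All 3 tested arms, out of 4 listed, rose, beside 22.9% of all tested miRNAs. The third, miR-296-5p, rose from 37.0 and 34.9 CPM to 67.2 and 53.8 CPM (log2 fold change 0.75, edgeR adjusted p = 0.0454), less than its 3p partner, and lost its call when any of the 4 VM libraries was left out (edgeR adjusted p from 0.0508 to 0.234). Mir744 lies in an intron of Map2k4 (chr11:65734733-65734832, minus strand) and Mir877 in an intron of Abcf1 (chr17:35960730-35960814, minus strand). MiR-877 is known as a mirtron, released from its intron by splicing. The remaining 2 of the largest increases were miR-340-3p, at 43.9 and 40.1 CPM against 183 and 164 CPM (log2 fold change 2.05), and miR-5099, at 1298 and 1020 CPM against 4375 and 4176 CPM (log2 fold change 1.88). Neither pair of groups overlapped.

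**Figure D2:**
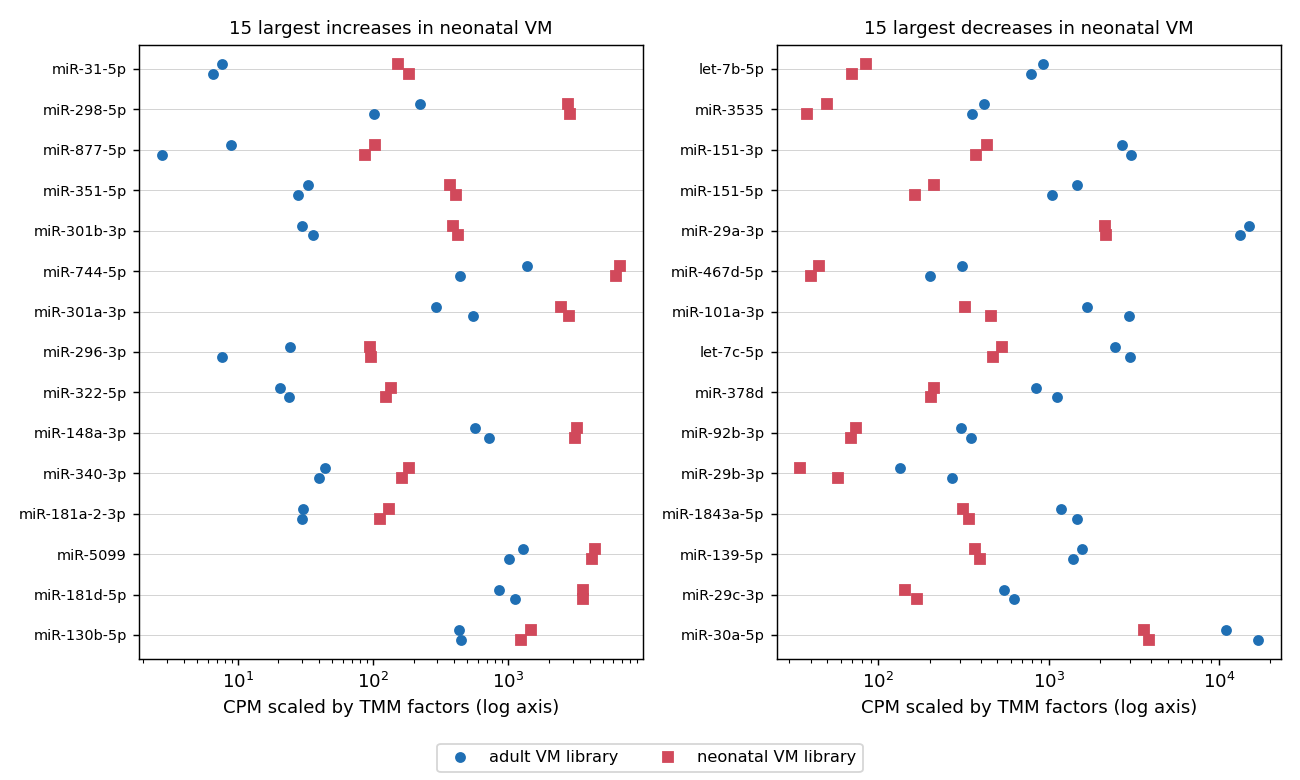
Level of each of the 15 largest increases and the 15 largest decreases (rows) in the 2 adult and the 2 neonatal VM libraries, in CPM on a log axis, 1 point per library. The adult and neonatal points do not overlap at any of the 30, as at all 155 called miRNAs and at 78.1% of all tested. The adult points lie over 2-fold apart at 4 of the increases and at 0 of the decreases.

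The 15 largest decreases ran from 3.70-fold to 11.2-fold, and at all 15 the replicates of each age lay within 2-fold. Let-7b-5p stood at 932 and 793 CPM in adult and 84.1 and 70.0 CPM in neonatal VM libraries, far apart with small gaps within each age. It fell 11.2-fold (log2 fold change -3.49 with an SE of 0.24, adjusted p = 3.34e-07 in edgeR). Let-7c-5p, made from a hairpin in the same cluster and from another on chromosome 16, stood at 2465 and 3010 CPM against 531 and 471 CPM (log2 fold change -2.45 with an SE of 0.21, adjusted p = 2.07e-06 in edgeR). That other hairpin, Mirlet7c-1 (chr16:77599657-77599750, plus strand), lies in an intron of Mir99ahg. The parts of the 2 hairpins in its level cannot be told apart. Mirlet7b (chr15:85707319-85707403) and Mirlet7c-2 (chr15:85706603-85706697) lie in exons of Lncppara on the plus strand, and the passenger arm let-7b-3p fell too (log2 fold change -3.21).

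The other let-7 members changed less. Over the family, 5 of 9 tested members, out of 10 listed, fell, none rose, and the median log2 fold change was -0.84. Over all tested miRNAs, 30.9% fell and 22.9% rose. Let-7g-5p stood at 15886 and 20169 CPM against 5737 and 6005 CPM (log2 fold change -1.62), let-7a-5p at 12858 and 19029 CPM against 8781 and 8363 CPM (-0.90), and let-7f-5p at 63684 and 43155 CPM against 29310 and 30249 CPM (-0.84). Let-7i-5p (log2 fold change -0.18), let-7d-5p (-0.28), miR-98-5p (-0.46) and let-7e-5p (0.56) were not called. Scaled by library totals, 3 members were lower and 1 higher, and the signs of let-7d-5p, let-7i-5p and miR-98-5p turned. Let-7k stood at 0 to 0.346 CPM and was not tested. Because the members differ by few bases, reads may have been split between them. The 5 tested passenger arms with the seed UAUACAA fell, with log2 fold changes from -3.21 to -1.14. Of these, let-7a-1-3p and let-7c-2-3p have the same counts in every library and are a single signal under 2 names.

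The miR-29 family, which represses T-bet and interferon gamma in T cells, had all 3 members lower, beside 30.9% of all tested miRNAs. MiR-29a-3p stood at 15124 and 13292 CPM in adult and 2131 and 2163 CPM in neonatal libraries (log2 fold change -2.73 with an SE of 0.19, adjusted p = 3.34e-07 in edgeR). MiR-29c-3p stood at 550 and 623 CPM against 143 and 168 CPM (log2 fold change -1.91 with an SE of 0.21, adjusted p = 1.44e-05 in edgeR). MiR-29b-3p stood at 135 and 270 CPM against 34.6 and 58.0 CPM (log2 fold change -2.11 with an SE of 0.39, adjusted p = 0.0016 in edgeR), with both ages spread wider than for its relatives. The summed level of the family was 15809 and 14184 CPM in adult and 2309 and 2389 CPM in neonatal libraries, most of it miR-29a-3p. Mir29a (chr6:31062660-31062747, minus strand) lies in no gene of its strand, and Mir29c (chr1:195037547-195037634, plus strand) in an exon of A330023F24Rik.

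Both arms of miR-151 fell by nearly the same amount. MiR-151-3p stood at 2701 and 3035 CPM in adult and 435 and 375 CPM in neonatal libraries (log2 fold change -2.82 with an SE of 0.21, adjusted p = 8.56e-07 in edgeR), and miR-151-5p at 1465 and 1043 CPM against 213 and 163 CPM (log2 fold change -2.74 with an SE of 0.23, adjusted p = 2.07e-06 in edgeR). The ages were well separated for both arms. MiR-30a-5p, an abundant member of the miR-30 family, stood at 11040 and 16902 CPM against 3641 and 3906 CPM (log2 fold change -1.89 with an SE of 0.22, adjusted p = 2.32e-05 in edgeR). Of the 5 miR-30 members, miR-30b-5p also fell (2882 and 2921 CPM against 1583 and 1555, log2 fold change -0.89). MiR-30c-5p (log2 fold change 0.18), miR-30d-5p (-0.11) and miR-30e-5p (0.06) were not called, and under library totals 2 members were higher and 1 lower. The share called lower over all tested miRNAs was 30.9%. Mir30a lies at chr1:23272269-23272339 on the plus strand, in no gene of that strand.

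MiR-101a-3p, a repressor of Ezh2 in several cell types, stood at 1677 and 2956 CPM in adult and 325 and 460 CPM in neonatal libraries (log2 fold change -2.56 with an SE of 0.30, adjusted p = 7.88e-05 in edgeR). Its relative miR-101b-3p stood at 1810 and 2899 CPM against 1124 and 1516 CPM (log2 fold change -0.83), and lost its call under library totals and without neonatal VM replicate 1 (edgeR adjusted p = 0.162). For both, adult replicate 2 was the higher and the ages did not overlap. MiR-139-5p, from an intron of Pde2a, stood at 1577 and 1397 CPM against 371 and 396 CPM (log2 fold change -1.95 with an SE of 0.20, adjusted p = 7.21e-06 in edgeR). MiR-92b-3p stood at 305 and 350 CPM against 74.2 and 69.5 CPM (log2 fold change -2.19).

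The other 4 of the largest decreases were miR-3535 (log2 fold change -3.15), miR-467d-5p (-2.60), miR-378d (-2.23) and miR-1843a-5p (-2.02). MiR-3535 stood at 417 and 355 CPM against 49.9 and 37.9 CPM, and miR-467d-5p at 310 and 201 CPM against 44.5 and 40.0 CPM. None of the 4 overlapped between ages. The miR-3535 hairpin lies in an exon of Ncl (chr1:86351981-86352127, minus strand), the gene of nucleolin. Mir1843a (chr12:80391613-80391677, minus strand) lies in an intron of Dcaf5 and overlaps an exon of the small Cajal body RNA Scarna3b. MiR-467d-5p has near-identical copies, so its reads may have been split between them.

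MiR-150-5p, a miRNA of mature lymphocytes that targets Myb, was the most abundant of all and gave up the largest share of the counts. It took 21.0 and 18.3% of the counts in adult and 9.95 and 8.46% in neonatal VM libraries, and its level was 229401 and 207898 CPM against 77563 and 66475 CPM. The ages did not overlap, and it fell 3.04-fold (log2 fold change -1.60 with an SE of 0.17, adjusted p = 9.69e-06 in edgeR). The next largest losses in share were of miR-142a-5p (10.3 to 8.36% on average), let-7f-5p (4.82 to 3.81%), miR-29a-3p (1.28 to 0.274%) and let-7g-5p (1.62 to 0.750%). In share, the ages overlapped at miR-142a-5p (7.914 and 12.62% in adult against 6.922 and 9.787% in neonatal libraries). They overlapped at let-7f-5p too (5.829 and 3.808% against 3.759 and 3.851%). The largest gains in share were of miR-16-5p (3.83 to 6.51%), miR-191-5p (2.17 to 3.97%), miR-181a-5p (1.48 to 2.98%), miR-181c-5p (1.03 to 2.36%) and miR-423-5p (0.298 to 1.60%). Of these, miR-16-5p (log2 fold change 0.26, edgeR adjusted p = 0.178) and miR-191-5p (0.36, edgeR adjusted p = 0.0971) were not called after TMM scaling, in which shares given up by abundant miRNAs are adjusted for. MiR-423-5p was not called either (1.94, edgeR adjusted p = 0.412). Its share was 0.5794% in adult VM replicate 1 and 0.01714% in replicate 2, so the adult mean rests on replicates far apart.

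The 10 most abundant miRNAs, by mean CPM over the 4 libraries, took 72.4 and 71.3% of the counts in adult and 63.8 and 64.3% in neonatal VM libraries. Of these, miR-150-5p, miR-142a-5p (log2 fold change -0.81), let-7f-5p (-0.84), miR-27b-3p (-0.67), miR-92a-3p (-0.45) and miR-26a-5p (-0.45) fell, though miR-92a-3p and miR-26a-5p stood at 0.05 and 0.06 under library totals. Those 2 lost their calls without adult VM replicate 1 and without either neonatal VM library, and miR-27b-3p without either neonatal VM library. MiR-142a-5p stood at -0.35 without adult VM replicate 2 (edgeR adjusted p = 0.175) and lost its call without neonatal VM replicate 1 too. MiR-21a-5p, a miRNA of activated T cells, stood at 71519 and 110308 CPM in adult and 62513 and 69782 CPM in neonatal libraries, and was not called (log2 fold change -0.46, edgeR adjusted p = 0.0776), but was called at -0.74 without adult VM replicate 1. MiR-16-5p, miR-191-5p and miR-30d-5p were not called either. Together, the miRNAs called higher took 4.15 and 4.09% of the counts in adult and 12.12 and 11.52% in neonatal libraries. Those called lower took 70.0 and 68.9% against 50.8 and 50.5%.

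Of 12 tested T cell activation miRNAs, out of 14 listed, 5 rose and 3 fell, with a median log2 fold change of -0.13, against -0.08 over all tested. Over all tested miRNAs, 22.9% rose and 30.9% fell. Beside miR-31-5p, the listed members that rose were miR-210-3p, a hypoxia-induced miRNA (5.23 and 8.64 CPM against 28.7 and 33.2, log2 fold change 2.14), miR-132-3p (4.83 and 6.22 CPM against 8.41 and 17.8, 1.28), miR-146b-5p and miR-222-3p. MiR-31-5p and miR-210-3p reached the 10 CPM needed for testing in neonatal libraries only, so their direction was largely set by that choice. MiR-155-5p, made from the Bic transcript that activated lymphocytes induce, fell from 907 and 1117 CPM to 322 and 294 CPM (log2 fold change -1.72 with an SE of 0.20, adjusted p = 2.32e-05 in edgeR). MiR-146a-5p, a brake on NF-kB, fell from 2817 and 2031 CPM to 750 and 841 CPM (log2 fold change -1.61 with an SE of 0.22, adjusted p = 7.75e-05 in edgeR), and miR-221-3p fell too. MiR-132-3p stood at 0.60 without neonatal VM replicate 2 and lost its call there (edgeR adjusted p = 0.48). Under library totals, 6 of the list were higher and 2 lower.

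Of 9 tested resting T cell miRNAs, 5 fell and none rose, with a median log2 fold change of -0.45, and over all tested miRNAs 53.8% were called and 30.9% fell. They were miR-150-5p, miR-139-5p, miR-101a-3p, miR-30b-5p and miR-26a-5p, while miR-342-3p, miR-30c-5p, miR-140-3p and miR-150-3p were not called. Under library totals, 4 of them were higher and 3 lower, and the median was 0.06. The summed level of the list was 306385 and 273692 CPM in adult and 131915 and 120127 CPM in neonatal libraries, most of it miR-150-5p.

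**Figure D3:**
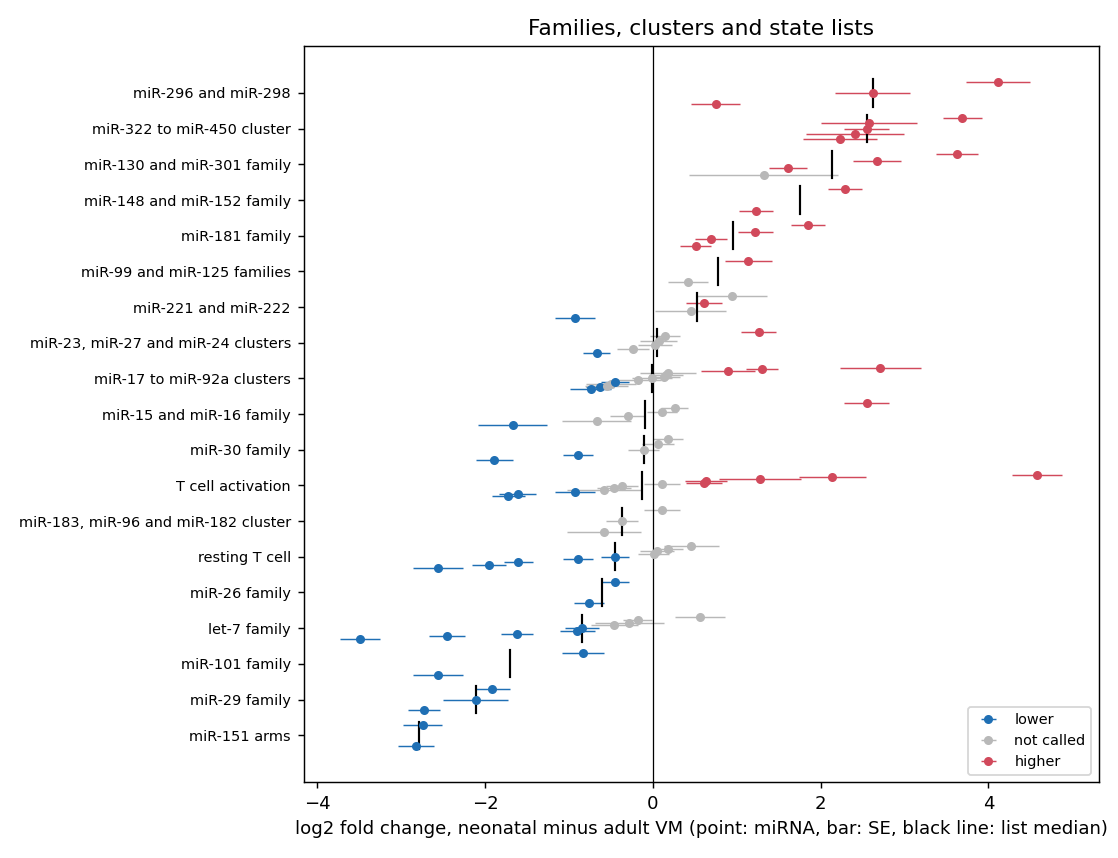
Log2 fold change of neonatal against adult VM cells for each tested member (points, with horizontal bars for the SE) of the listed families, clusters and T cell states (rows), coloured by the edgeR call, with a black line at the median of each list. The 5 tested members of the miR-322 to miR-450 cluster lie to the right and all 3 of the miR-29 family to the left, while the miR-17 to miR-92a clusters lie on both sides.

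The miR-17 to miR-92a clusters, which drive lymphocyte proliferation, had 3 of 13 members higher, 3 lower and 7 not called, beside 22.9% higher and 30.9% lower over all tested miRNAs. MiR-18b-5p rose from 7.65 and 15.9 CPM to 70.7 and 84.7 CPM (log2 fold change 2.71), miR-363-3p from 607 and 523 CPM to 1415 and 1358 CPM (1.30) and miR-18a-5p from 37.0 and 60.2 CPM to 75.2 and 106 CPM (0.90). MiR-19b-3p (log2 fold change -0.74), miR-25-3p (-0.63) and miR-92a-3p (-0.45) fell, but under library totals 5 members were higher and none lower. MiR-18a-5p stood at 0.59 without adult VM replicate 1 and miR-19b-3p at -0.25 without adult VM replicate 2, and both lost their calls there (edgeR adjusted p = 0.123 and 0.156). The 6 tested members with the seed AAAGUGC, among them miR-17-5p and miR-20a-5p, were all not called, with log2 fold changes from -0.55 to 0.18. Among the remaining lists, the miR-15 and miR-16 family had 1 higher and 1 lower of 6, the miR-23, miR-27 and miR-24 clusters 1 higher and 1 lower of 6, and the miR-26 family both members lower, neither of them called under library totals. The miR-99 and miR-125 families had 1 of 2 tested members higher, miR-99b-5p (log2 fold change 1.14), and the miR-183, miR-96 and miR-182 cluster had none of 3 called.

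Members with the same seed went together in some groups and parted in others. Among the 223 tested names with a RefSeq sequence, 28 seeds had at least 2 members. Tested miRNAs without one, such as miR-15a-5p and miR-30b-5p, are not in these groups. All members lay on the same side of 0 at 15 seeds, and at 4 seeds members were called in opposite directions. Most groups held only 2 members, where a shared sign is common. At the seed AUUGCAC, miR-363-3p rose while miR-92a-3p, miR-92b-3p, miR-25-3p and miR-32-5p fell, with log2 fold changes down to -2.19. At AGCAGCA, miR-322-5p rose while miR-195a-5p fell from 21.7 and 46.3 CPM to 10.4 and 11.0 CPM (log2 fold change -1.67, and -0.96 with its call lost without adult VM replicate 2), and miR-16-5p, by far the most abundant member, was not called.

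At GAGAACU, miR-146b-5p rose from 84.5 and 64.3 CPM to 125 and 108 CPM (log2 fold change 0.64 with an SE of 0.25, adjusted p = 0.0454 in edgeR), opposite to miR-146a-5p, which stood at a higher level. At GCUACAU, miR-222-3p rose from 196 and 201 CPM to 291 and 316 CPM (log2 fold change 0.61 with an SE of 0.21, adjusted p = 0.0301 in edgeR). Its neighbour miR-221-3p, on the same stretch of the X chromosome, fell from 200.1 and 279 CPM to 118 and 133 CPM (log2 fold change -0.93 with an SE of 0.24, adjusted p = 0.00602 in edgeR). The ages did not overlap for any of these 4. The calls of miR-146b-5p and miR-222-3p were lost without either neonatal VM library (edgeR adjusted p from 0.0754 to 0.227), and that of miR-221-3p without neonatal VM replicate 1 (0.0502).

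Hairpins within 10 kb of each other were grouped as clusters, 25 in all, of which 14 had calls in a single direction, 7 in both directions and 4 no call. These cover the 223 tested names with a RefSeq sequence. The other 65, among them miR-351-5p and miR-301b-3p, were left out, so some clusters are missing or lack members. A mature miRNA made from several hairpins counts in each of its clusters. The Mirlet7a-1, Mirlet7d and Mirlet7f-1 cluster on chromosome 13 (48536012 to 48538272, minus strand) had 5 of 6 tested arms lower, beside 30.9% of all tested miRNAs. Among the 5 is let-7a-1-3p, whose counts cannot be told from those of let-7c-2-3p on chromosome 15. Where both arms of a hairpin were tested, 53 of 66 pairs had the same sign. Both arms were called in 25 pairs, 24 of them in the same direction. The exception was miR-27b, whose 5p arm rose (log2 fold change 0.94, mean 67.8 CPM) and whose abundant 3p arm fell (-0.67, mean 40051 CPM), with both calls lost without neonatal VM replicate 2. Some arms in these pairs, among them miR-210-5p, miR-18b-3p and miR-29a-5p, reached the 10 CPM needed for testing at a single age. Their direction was largely set by that filter, so such pairs say less about agreement between arms. MiR-150-3p (log2 fold change 0.46, edgeR adjusted p = 0.267) and miR-139-3p (0.46, edgeR adjusted p = 0.221) were not called, while their 5p arms fell.

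Markers of other cell types were mostly low. Of the erythroid list, miR-486a-5p and miR-486b-5p, near-identical copies whose reads cannot be told apart, fell (246 and 294 CPM against 86.5 and 76.8 for miR-486a-5p, log2 fold change -1.73). The defining erythroid miR-451a stood at 2.42 and 3.11 CPM in adult and 5.93 and 2.87 CPM in neonatal libraries, and miR-144-3p and miR-144-5p at 0 to 1.21 CPM. Summed, the erythroid list was at 494 and 593 CPM in adult and 179 and 156 CPM in neonatal libraries. The myeloid miR-223-3p was at 5.64 and 15.6 CPM against 0.989 and 3.92 CPM, and was not tested. Of the 3 tested endothelial and progenitor markers, miR-126a-3p (log2 fold change 1.55) and miR-126a-5p (1.41) rose, up to 60.6 CPM (the call of miR-126a-5p was lost without neonatal VM replicate 2), and the list summed to 159 and 193 CPM against 144 and 106 CPM. The share that rose was 22.9% over all tested miRNAs, and miR-126a-3p reached the 10 CPM needed for testing in neonatal libraries only.

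Of 7 epithelial markers, 3 fell, miR-203-3p (611 and 679 CPM against 254 and 240, log2 fold change -1.38), miR-200a-3p (-1.04) and miR-141-3p (-0.71), and the list summed to 1626 and 1642 CPM against 1024 and 1069 CPM. The share that fell was 30.9% over all tested miRNAs. The 2 tested stromal markers, miR-143-3p and miR-10b-5p, were not called, the 9 listed summed to 27.4 and 50.1 CPM against 71.2 and 60.1 CPM, and miR-145a-5p, miR-214-3p, miR-1a-3p and miR-206-3p were at 0. None of 34 miRNAs of the imprinted Dlk1-Dio3 locus, abundant in fetal tissue, was tested, and they summed to 4.03 and 1.73 CPM in adult and 10.9 and 7.84 CPM in neonatal VM libraries. The part of these cells in the age differences was not tested.

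The age change in VM cells was set against that in TN cells, measured in other libraries, with 1 neonatal and 2 adult TN libraries. In TN cells 138 of 288 were called (47.9%), 76 higher (26.4%) and 62 lower (21.5%). The split was 106 higher and 38 lower under library totals, and turned to 56 and 79 under upper quartile factors. Of the 155 called in VM cells, 137 had the same sign in TN cells, and 101 were called in both with the same sign, which is 65.2% of the VM and 73.2% of the TN calls. Part of that sharing was set by the 10 CPM filter, which used the libraries of both subsets. Through neonatal libraries only, 25 miRNAs passed it, 20 of them called higher in VM cells. Through adult libraries only, 12 passed, 9 of them called lower. Of the 15 largest increases in VM cells, 13 were called higher in TN cells too, and of the 15 largest decreases 11 were called lower. Across the tested miRNAs, as a description, the log2 fold changes had Pearson's r of 0.791 and Spearman's rho of 0.775. The lone neonatal TN library has no replicate, and its spread was taken to be that of the other libraries.

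The difference of the 2 age changes was itself tested. It was called for 23 of 288 (7.99%), 18 of them with the lower change in VM cells (6.25%) and 5 with the higher (1.74%). That balance depended on the scaling, since upper quartile factors, which moved the median by 0.40, gave 18 higher and 12 lower, and RLE factors 8 and 14. MiR-151-3p differed most clearly, at 1513 and 1924 CPM in adult TN and 2304 CPM in neonatal TN, so that the VM decrease of 2.82 on the log2 scale had no counterpart called in TN cells (log2 fold change 0.42). The difference was -3.25 (SE 0.31, edgeR adjusted p = 6.83e-05). MiR-30a-5p moved in opposite directions, from 1451 and 1573 CPM in adult TN up to 3645 CPM in neonatal TN (log2 fold change 1.27), a difference of -3.16 (SE 0.33, edgeR adjusted p = 9.07e-05). In neonatal cells its levels in VM and TN were thus close, while adult VM cells stood far above adult TN cells. It was 1 of 3 miRNAs called in opposite directions, with miR-30a-3p and miR-7a-5p.

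MiR-182-5p, which is induced by interleukin 2 in helper T cells, was not called in VM cells, at 4180 and 4969 CPM against 3460 and 3600 CPM (log2 fold change -0.37). In TN cells it rose from 1004 and 1197 CPM to 4006 CPM (log2 fold change 1.86), a difference of -2.24 (SE 0.30, edgeR adjusted p = 0.000653). MiR-146b-5p rose in both, but more in TN cells, from 25.9 and 27.4 CPM to 262 CPM, with a difference of -2.65 (SE 0.39, edgeR adjusted p = 0.00111). MiR-146a-5p fell in VM cells and was not called in TN cells (372 and 471 CPM against 437), with a difference of -1.66 (SE 0.34, edgeR adjusted p = 0.00997, and 0.104 to 0.137 without an adult TN library). Of the largest increases in VM cells, miR-877-5p rose more there than in TN cells (difference 2.78), while miR-301a-3p (-1.72) and miR-301b-3p (-1.49) rose less. These 3 differences lost their calls without either adult TN library. The calls for miR-151-3p, miR-30a-5p, miR-182-5p, miR-146b-5p, miR-486a-5p and miR-486b-5p held in every alternative run, while the count of calls ranged from 6 without adult TN replicate 2 to 86 without adult VM replicate 1.

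**Figure D4:**
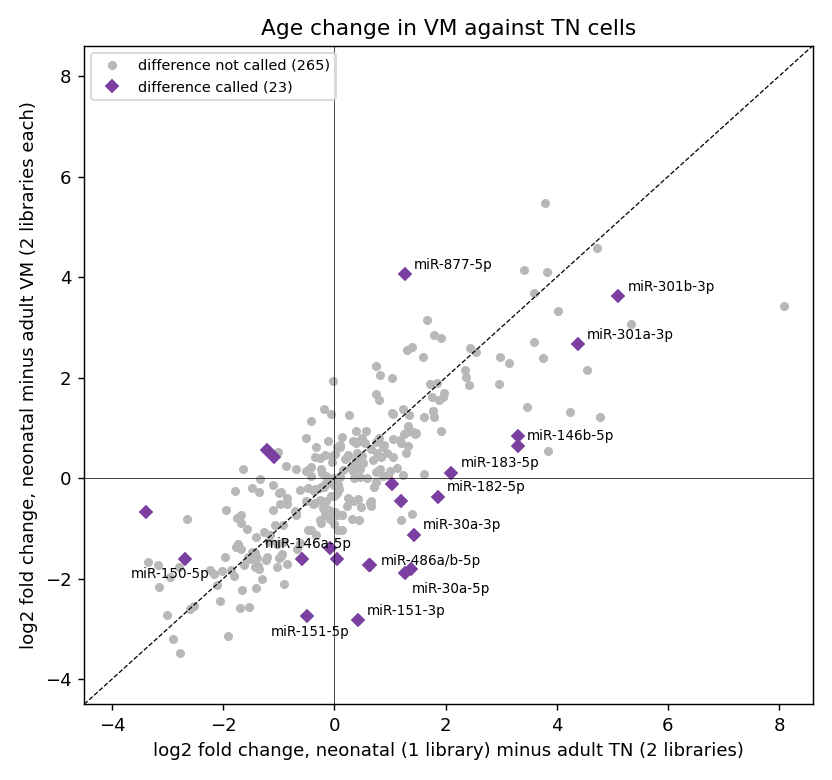
Log2 fold change of neonatal against adult VM cells (vertical axis, 2 libraries each) by that of neonatal (1 library) against adult (2 libraries) TN cells (horizontal axis) for 288 tested miRNAs. Diamonds mark the 23 whose difference was called, and the dashed line marks equal changes, with miR-151-3p and miR-30a-5p far below it.

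The replicates differed by over 2-fold at 44 tested miRNAs in adult and at 12 in neonatal VM cells. MiR-423-5p differed most, at 6330 CPM in adult VM replicate 1 and 194 CPM in replicate 2. It stood at 12702 and 12318 CPM in the neonatal VM, 11026 and 14688 CPM in the adult TN and 12661 CPM in the neonatal TN library. Adult VM replicate 2 was by far the lowest of the 7, and adult VM replicate 1 lay below the other 5. It was not called (log2 fold change 1.94 with an SE of 1.73, adjusted p = 0.412 in edgeR), and the change was 6.0 without adult VM replicate 1 and 1.04 without replicate 2, called in both. MiR-25-5p was low in adult VM replicate 2 as well, at 153 and 31.1 CPM in adult and 139.9 and 142 CPM in neonatal VM libraries. MiR-6240 was spread in both ages, at 149 and 20.4 CPM in adult and 28.2 and 65.3 CPM in neonatal libraries. Among miRNAs that averaged at least 50 CPM, the neonatal replicates differed most at miR-10a-5p, at 85.5 and 29.5 CPM against 136 and 166 CPM in adult cells, and missed the call (log2 fold change -1.42, edgeR adjusted p = 0.0573, and -2.33 with a call without neonatal VM replicate 1). At that level miR-6240 came next and miR-15b-3p, at 35.1 and 64.3 CPM, after it, within 2-fold.

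**Figure D5:**
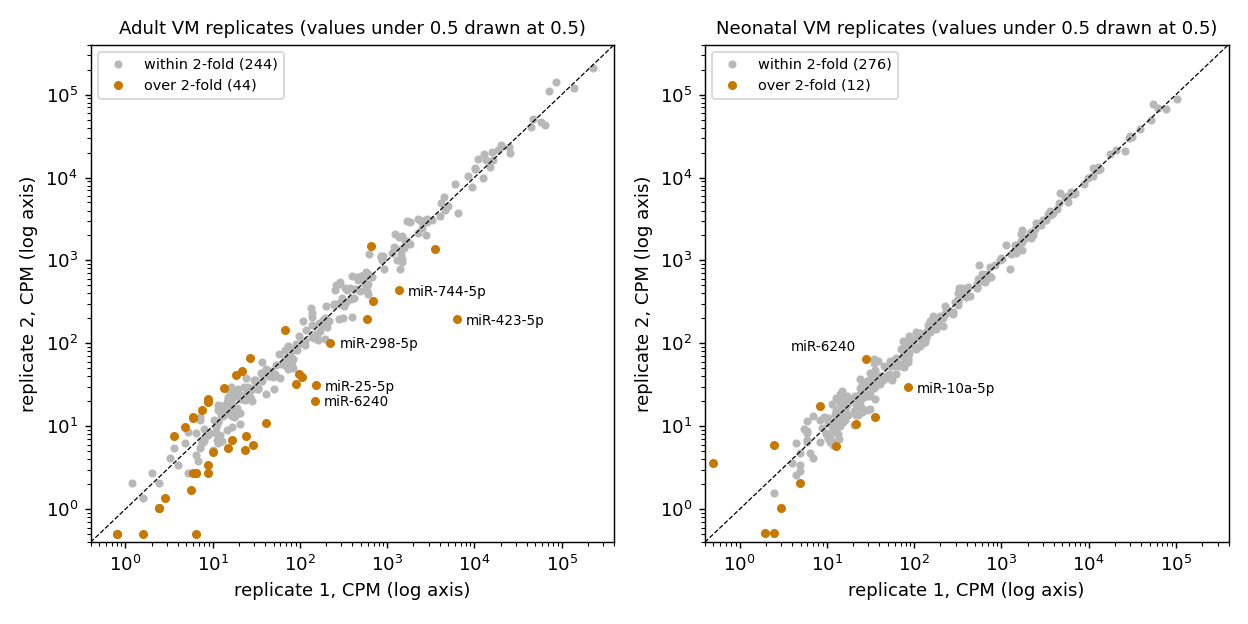
CPM in replicate 2 against replicate 1 of adult (left) and neonatal (right) VM cells, on log axes, for 288 tested miRNAs. Coloured points lie over 2-fold apart, 44 in adult and 12 in neonatal cells, with miR-423-5p the farthest from the line of equality in adult cells.

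A single miRNA was at 0 in both libraries of 1 age with at least 10 counts in each of the other. MiR-7091-5p had 0 counts in both adult libraries and 11 and 10 counts in the neonatal ones. With the floor of 3 counts in each adult library, its mean level was at least 3.59-fold higher in neonatal cells. It was too low to be tested.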

How the data were processed

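Small RNA libraries were made by the submitters with the Illumina TruSeq kit from 50 to 100 ng of RNA, size selected for inserts of 18 to 35 bases, per the labels' protocols. The authors deposited estimated counts per mature miRNA and precursor, with fractional values. The submitters' processing notes name the build mm10, and the aligner and counter are not given in the sources used here. The 2128 lines were summed per mature name (1978 names) and rounded, which moved a sum by at most 0.50. A miRNA was tested if 2 or more of the 7 libraries reached 10 CPM on library totals, before TMM scaling, which held for 288. At 10 CPM a VM library held 15.8 to 32.8 counts. Counts were scaled by TMM factors (0.915 and 0.882 in adult, 1.282 and 1.273 in neonatal VM) and fitted in edgeR 4.0.16 (R 4.3.3) over all 7 libraries as 4 groups, with robust dispersions and 3 residual degrees of freedom. The quasi-likelihood test was adjusted by Benjamini-Hochberg over all tested miRNAs, and SE are those of the log2 fold change. An exact permutation test of 2 against 2 libraries cannot go below 0.333, so none is given.

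Named miRNAs were the 15 largest called changes each way among those averaging 50 CPM or more, the 10 most abundant, the 5 largest share gains and losses, the 10 smallest adjusted p for the VM and TN difference, the 3 largest replicate differences per age, miRNAs at 0 in 1 age, arm, seed and cluster partners of these, and list members. MiR-7a-5p, the third miRNA called in opposite directions in VM and TN cells, was named after its values were seen. The members and lists were chosen with earlier results of these data known. Hairpins and host genes came from GENCODE M21 on GRCm38, and sequences from RefSeq. The alternatives tried were scaling by library totals, upper quartiles or RLE, leaving the 5 most abundant miRNAs out of the library size, no filter, 100 CPM, filterByExpr, DESeq2 1.42.0, limma 3.58.1 voom, non-robust dispersions, a replicate block, only the VM libraries, the largest precursor value per name, and each library left out. The method was tested on simulated data. Target genes and isomiRs were not analysed here.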

Additional observations from a re-analysis of the deposited data

Results flagged for a closer look

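Each of these results was singled out because the age change differed between VM and TN cells by a test of the difference itself (edgeR, adjusted p at most 0.05). The difference is the log2 fold change of neonatal against adult cells in VM minus that in TN. It was -3.25 for miR-151-3p, -2.24 for miR-151-5p, -3.16 for miR-30a-5p and -2.56 for miR-30a-3p. It was -2.36 for miR-486a-5p and -2.35 for miR-486b-5p, near-identical copies that count as a single signal. It was -2.24 for miR-182-5p and -1.99 for miR-183-5p, neighbours in a cluster, and -2.65 for miR-146b-5p and -1.66 for miR-146a-5p. Among the 15 largest increases in VM cells, it was 2.78 for miR-877-5p, -1.49 for miR-301b-3p and -1.72 for miR-301a-3p. All rest on a single neonatal TN library.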

How the results depend on the processing

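Of 600 alternative values for the 30 largest changes, 596 kept their direction and call, and the other 4 were of miR-744-5p, which kept its direction but had edgeR adjusted p of 0.13 without a filter, 0.0527 with filterByExpr and 0.064 and 0.0699 without neonatal VM replicates 1 and 2. Of 155 calls, 115 kept call and sign under library totals, and 3 turned sign, among them miR-92a-3p (0.05) and miR-26a-5p (0.06). Not called with all libraries, let-7d-5p stood at 0.54 and -0.75 without adult VM replicates 1 and 2, and miR-17-5p at -0.32 and 0.44. The count of miRNAs called between ages in VM cells was 93 of 153 tested with the 100 CPM filter, which tests fewer miRNAs, and 106 to 170 with single libraries left out. Other settings gave 127 to 178. The count for the VM and TN difference was 23, against 43 without a filter, 40 with filterByExpr, 38 with DESeq2 and 15 with limma voom. With single libraries left out it was 6 (without adult TN replicate 2), 9 (without adult TN replicate 1), 13 and 15 (without neonatal VM replicates 1 and 2), 59 (without adult VM replicate 2) and 86 (without adult VM replicate 1), and the cause was not tested. Of 410 alternative values for the 23 differences, 318 kept their call, 92 lost it and 0 turned sign. The count for age in TN cells was 138 (76 higher and 62 lower), against 69 with the 100 CPM filter and 83 to 179 with single libraries left out, the lowest without adult TN replicate 2 and 86 without adult TN replicate 1. The replicate block gave 148 calls in VM cells and 25 differences. The labels give no pairing of replicates. The deviations of same-numbered libraries had correlations of 0.137 (adult VM with neonatal VM), 0.019 (adult VM with adult TN) and -0.158 (neonatal VM with adult TN). With 1 pair of replicates per group, these cannot show whether the samples were paired. At 2 libraries per age, small changes were not detectable, and the floor of 3 counts stood at 0.78 to 1.48 CPM, for counting error only.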
